A study of Mus musculus with 4 samples.

Results

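The genes described here are the 3 Gli transcription factors, Gli1, Gli2 and Gli3, and the feedback inhibitors of Hedgehog signalling Ptch1 and Hhip. They were taken by symbol as 5 of the 55573 genes in the deposited table, and 4 of the 5 passed the low-count filter and were tested. RNA was sequenced from SmoWT cells, mouse medulloblastoma cells of the Sonic Hedgehog (SHH) subtype grown as neurospheres, on the C57BL/6 strain with the genotype Ptch1+/-, Trp53-/-. In 2 libraries the cells had received the vehicle DMSO, and in 2 libraries 0.1 µM GDC0449 (vismodegib, a small molecule that binds and inhibits Smoothened), in both cases for 24 h. All 4 libraries thus carry the Ptch1 and Trp53 mutations, and no wild-type cells serve as a reference. The cells were derived from tumours that arose spontaneously. The labels state neither how many tumours or clones the line represents nor whether replicates were separate cultures. The p-values thus speak only for these samples. The edgeR test estimates the spread of each gene partly from the other tested genes, so its p-values do not rest on that gene's 4 libraries alone.

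In the Hedgehog pathway the receptor Ptch1 restrains Smoothened, and release of Smoothened shifts the balance of Gli2 and Gli3 proteins from repressor towards activator forms. Gli2 is the main primary activator and Gli3 mainly a repressor, whereas Gli1 is an activator that is itself a transcriptional target of the pathway. Ptch1 and Hhip are targets that feed back: Ptch1 restrains Smoothened in the receiving cell, and Hhip, a membrane-anchored and shed protein, binds Hedgehog ligands. In granule neuron progenitors of the cerebellum, from which SHH medulloblastoma arises, this pathway drives proliferation. The comparison asks how far each of these genes falls after Smoothened is inhibited, and whether activator, repressor and feedback genes fall by different amounts.

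The 3 Gli genes share a zinc finger DNA-binding region. The coding stretch of 90 bases with the most letters shared by all 3 is shown because it bears on whether reads of the paralogs could be confused; capitals mark the 71 bases identical in all 3. It covers coding bases 1111 to 1200 of Gli1, 1648 to 1737 of Gli2 and 1837 to 1926 of Gli3 in the GENCODE M21 transcripts, counted from the first base of the start codon.
Gli1: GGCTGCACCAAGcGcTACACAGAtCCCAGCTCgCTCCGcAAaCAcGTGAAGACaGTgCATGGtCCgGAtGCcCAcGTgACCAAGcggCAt
Gli2: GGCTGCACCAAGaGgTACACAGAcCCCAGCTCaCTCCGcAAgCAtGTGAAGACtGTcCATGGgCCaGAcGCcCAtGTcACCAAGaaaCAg
Gli3: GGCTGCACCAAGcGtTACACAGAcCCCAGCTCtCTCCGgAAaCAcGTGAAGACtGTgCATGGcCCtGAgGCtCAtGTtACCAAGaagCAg
The differences are spread through the stretch. Over the whole coding sequences, the longest run identical between Gli1 and Gli2 was 23 bases, between Gli1 and Gli3 14 bases and between Gli2 and Gli3 25 bases. No 30-base stretch of coding sequence was shared between any pair, so a read of at least 30 coding bases without errors carries letters that separate the paralogs. Read length is not stated in the labels.

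Between 16329721 and 20790030 reads per library fell in genes. The spread between replicates exceeded counting noise, at a chi-square per gene of 4.11 for DMSO and 3.41 for GDC0449. Of 8 granule neuron progenitor markers all 8 had reads, with a summed level of 936 to 937 CPM (counts scaled to a common library size) in DMSO and 1158 to 1250 CPM in GDC0449. Zic1 made up most of this sum, with means of 542 CPM in DMSO and 641 CPM in GDC0449. Barhl1 had only 4 to 10 reads per library and was not tested. The mean of Pax6 went from 64.1 to 56.0 CPM, whereas those of Atoh1, Zic1, Zic2, Mfap4, Meis1 and En2 rose. Summed over each list, markers of other cells were scarcer, in CPM that are not scaled to gene length. Single astrocyte genes nonetheless exceeded single progenitor genes such as Pax6. Purkinje and GABAergic neuron markers summed to at most 0.332 CPM, with 4 of 5 at 0 (Calb1, Gad1, Gad2 and Slc32a1), and endothelial markers to at most 0.806 CPM, with Cdh5 and Kdr at 0. Fibroblast markers summed to 2.17 to 2.65 CPM in DMSO and 2.42 to 2.84 CPM in GDC0449, with reads for 5 of 6 and Lum at 0. Microglial markers went from 4.68 to 6.33 CPM in DMSO to 2.18 to 2.65 CPM in GDC0449, with reads for all 6. Astrocyte markers went from 147 to 164 CPM to 249 to 254 CPM, with reads for 4 of 6 and Aqp4 and Aldh1l1 at 0, and oligodendrocyte markers from 63.6 to 63.7 CPM to 79.4 to 79.5 CPM, with reads for all 6. The astrocyte sum was almost all Slc1a2, with means of 78.1 CPM in DMSO and 177 CPM in GDC0449, and Slc1a3, with 75.3 and 71.5 CPM. The part of these cell markers in the results below was not tested. In bulk samples, fewer cells expressing a gene and less of its RNA per cell cannot be told apart.

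Of the 4 tested genes, Gli1, Hhip and Ptch1 fell, and Gli2 was lower by just under the fold threshold. A gene was called at an adjusted p below 0.05 with edgeR and a fold change over 1.5. By that rule 12.4% of the 15472 tested genes were called, 3.80% lower and 8.62% higher in GDC0449. All 4 genes had both GDC0449 libraries below both DMSO libraries, as did 32.2% of all tested genes, and in either direction 65.8% of tested genes had groups that do not overlap. The 4 differ widely in size. Gli1 and Hhip kept 13.1% and 16.9% of their DMSO level in CPM, Ptch1 kept 51.2% and Gli2 67.2%.

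**Figure D1:**
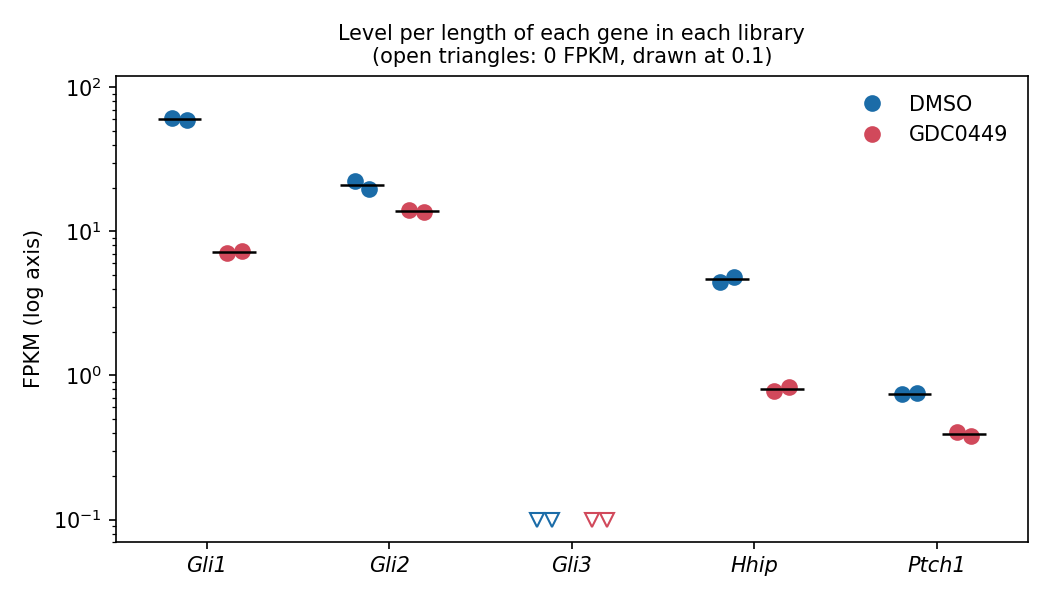
Level per length (FPKM, log axis) of each gene in each library; points are libraries, blue for DMSO and red for GDC0449, and bars are means of 2 libraries. Gli1 goes from 60.2 to 7.20 FPKM and passes below Gli2, while Gli3 is listed at 0 in all 4 libraries.

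Gli1 (ENSMUSG00000025407) lies on the minus strand of chromosome 10, 127329882 to 127341974 (GRCm38). It had 5527 and 4237 reads in DMSO replicates 1 and 2, and 818 and 691 reads in GDC0449 replicates 1 and 2. In CPM these were 281 and 263 in DMSO against 38.8 and 32.7 in GDC0449. The lowest DMSO library was thus 6.78-fold above the highest GDC0449 library. The log2 fold change was -2.93 with a standard error of 0.07 (edgeR adjusted p = 2.58e-34), a fall of 7.61-fold, and 30 of the 15472 tested genes had a lower value. Of the 10803 tested genes that averaged 5 CPM or more, 7 did. With no low-count filter the edgeR adjusted p of Gli1 was 3.00e-05, at a log2 fold change of -2.94. Of its 4995 exonic bases 6.55% overlap Arhgap9 or Gm47200 on the opposite strand. The strand setting of the counting is not given, so reads there may have been set aside as ambiguous.

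Gli2 (ENSMUSG00000048402), on the minus strand of chromosome 1, 118834132 to 119053619, had 4180 and 2981 reads in DMSO and 2911 and 2725 in GDC0449. In CPM it stood at 213 and 185 in DMSO and at 138 and 129 in GDC0449. The groups do not overlap, but the DMSO libraries differ by more than the GDC0449 libraries do, and the lowest DMSO value is 1.34-fold the highest GDC0449 value. The log2 fold change was -0.58 with a standard error of 0.07 (edgeR adjusted p = 7.69e-10). At 1.49-fold lower it was not called. By adjusted p alone, with no fold threshold, 18.0% of tested genes were lower. The value lies close to the threshold and crossed it when DMSO replicate 2 was left out, at -0.68, and when GDC0449 replicate 1 was left out, at -0.63.

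Gli3 (ENSMUSG00000021318), on the plus strand of chromosome 13, 15463235 to 15730026, had 0 reads in each of the 4 libraries, and the authors' FPKM is also 0 in each. A count of 0 among the 77944561 reads of all libraries allows a level of up to 0.0385 CPM, taking 3 reads as the limit and counting error only. No fold change can be given for this repressor. Only 1.96% of its 9589 exonic bases overlap another gene, Gm6556. Of 21980 protein-coding genes in the table, 5906 (26.9%) had 0 reads in all 4 libraries, and 4974 were at 0 in both reads and FPKM. Within 1 Mb on either side, the protein-coding genes Hecw1 and Inhba also had 0 reads in all 4 libraries, whereas Mrpl32, Psma2 and AW209491 had 334 to 390, 1211 to 1470 and 250 to 303 reads per library. In 546 genes of the table a count of 0 in all 4 libraries stands beside an FPKM of at least 1 in all 4, and Gli3 is not among them. The neighbours were looked up after the Gli3 values were seen.

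Hhip (ENSMUSG00000064325), on the minus strand of chromosome 8, 79965851 to 80058006, had 1179 and 1019 reads in DMSO and 214 and 226 in GDC0449. Its levels were 60.0 and 63.3 CPM in DMSO against 10.2 and 10.7 CPM in GDC0449. Both pairs are tight, and the groups are separated by 5.60-fold at their nearest values. The log2 fold change was -2.56 with a standard error of 0.10 (edgeR adjusted p = 3.74e-27), and 45 tested genes had a lower value. On log2(FPKM + 1) the difference was -1.65 and still called.

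Ptch1 (ENSMUSG00000021466), on the minus strand of chromosome 13, 63508328 to 63573598, was the least abundant of the genes with reads, with 303 and 259 reads in DMSO and 178 and 162 in GDC0449. This is 15.4 and 16.1 CPM against 8.45 and 7.68 CPM. The groups do not overlap and lie 1.83-fold apart at their nearest values. The log2 fold change was -0.96 with a standard error of 0.13 (edgeR adjusted p = 4.12e-08), a fall of 1.95-fold, and 362 tested genes had a lower value. On log2(FPKM + 1), a scale that compresses changes of genes below 1 FPKM, the difference was -0.33 and under the fold threshold. Ptch1 is heterozygous by genotype, and the table gives no separate counts for its alleles.

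Levels of different genes can be compared only per length, and for this the authors' FPKM were used. In DMSO the order was Gli1 at 60.2 ± 1.87 FPKM (SD, n = 2), Gli2 at 20.9 ± 1.99, Hhip at 4.65 ± 0.270, Ptch1 at 0.748 ± 0.00722 and Gli3 at 0. In GDC0449 it was Gli2 at 13.9 ± 0.322 FPKM, Gli1 at 7.20 ± 0.222, Hhip at 0.804 ± 0.0407, Ptch1 at 0.391 ± 0.0168 and Gli3 at 0 (SD, n = 2). Neighbours with reads in each order differed by more than the spread of their replicates. The order thus changed at its top and nowhere else: Gli1 was the leading Gli transcript with the vehicle, and Gli2 with the inhibitor. Counts per kilobase of annotated exon gave other levels but the same 2 orders.

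**Figure D2:**
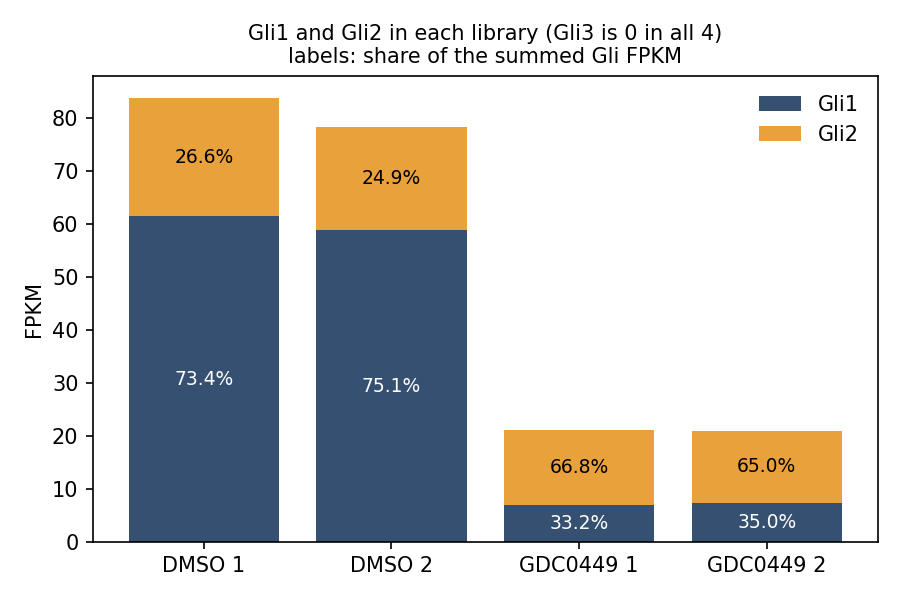
FPKM of Gli1 and Gli2 stacked in each library, with each gene's share of the summed Gli FPKM written in its bar. The sum is 83.9 and 78.4 in DMSO and 21.2 and 21.0 in GDC0449, and the Gli1 share goes from 73.4% and 75.1% to 33.2% and 35.0%.

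The summed FPKM of the Gli genes stood at 83.9 and 78.4 with DMSO, against 21.2 and 21.0 with GDC0449. Gli1 made up 73.4% and 75.1% of this sum in DMSO and 33.2% and 35.0% in GDC0449. Gli2 held the rest, since Gli3 is listed at 0. The ratio of Gli1 to Gli2 FPKM was 2.76 and 3.02 in DMSO and 0.498 and 0.537 in GDC0449, so in each library the order matches that of its group. By counts per kilobase of annotated exon, mean Gli1 and Gli2 levels were 54.5 and 29.0 in DMSO. In GDC0449 they were 7.16 and 19.5, so the sizes of these shares and ratios depend on the length measure.

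The difference in fall between genes was measured as their log2 ratio of counts within a library, which cancels library size and scaling. All 6 pairs of the 4 measured genes were compared. In each of the 6 the DMSO and GDC0449 libraries do not overlap. How often other pairs of genes are separated in this way was not computed. Among single tested genes, 65.8% had groups that do not overlap. With 2 libraries a group the exact permutation test (two-sided) cannot go below p = 0.333, the value it gave for each pair (0.333 after Benjamini-Hochberg adjustment), so the sizes and standard errors are descriptions.

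**Figure D3:**
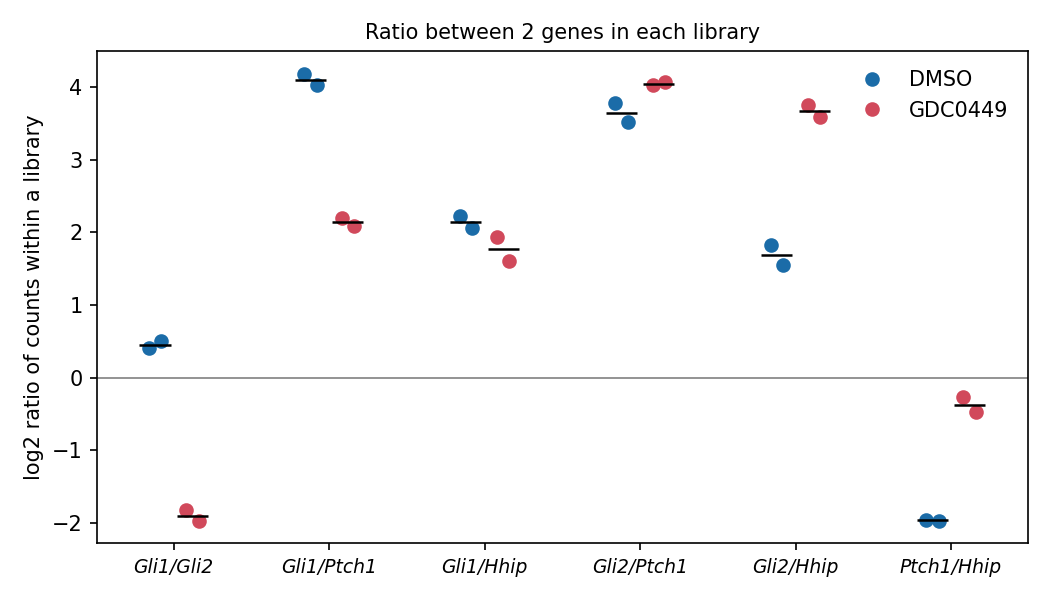
log2 ratio of counts between 2 genes within each library, blue for DMSO and red for GDC0449, with bars at group means. The largest shift is in Gli1 over Gli2, from 0.46 to -1.90, and the smallest in Gli1 over Hhip, from 2.14 to 1.77.

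Between the activators, the log2 ratio of Gli1 to Gli2 was 0.40 and 0.51 in DMSO and -1.83 and -1.98 in GDC0449. The ratio thus shifted by -2.36 log2 units, with a combined standard error of 0.10 from the 2 fold changes. Gli1 and Hhip were the closest pair of large falls. Their log2 ratio was 2.23 and 2.06 in DMSO and 1.93 and 1.61 in GDC0449, a shift of -0.37 with a combined standard error of 0.12. The shift is larger than the spread within DMSO (SD 0.12) and within GDC0449 (SD 0.23), and leaving out single libraries moved it between -0.53 and -0.21.

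The feedback genes did not fall alike. The log2 ratio of Ptch1 to Hhip was -1.96 and -1.97 in DMSO and -0.27 and -0.48 in GDC0449, so Hhip dropped further than Ptch1 by 1.59 log2 units with a combined standard error of 0.16. The ratio of Gli1 to Ptch1 shifted by -1.96 with a combined standard error of 0.15. Ptch1 was nearest to Gli2, with a log2 ratio of Gli2 to Ptch1 of 3.78 and 3.52 in DMSO and 4.03 and 4.07 in GDC0449. This shift of 0.39, with a combined standard error of 0.15, means a slightly larger drop of Ptch1 than of Gli2, and it ranged from 0.26 to 0.53 when single libraries were left out. Gli2 over Hhip shifted by 1.99 with a combined standard error of 0.12. By size the genes thus form a pair with large falls, the activator Gli1 and the ligand-binding inhibitor Hhip, and a pair with smaller differences. The latter holds the receptor Ptch1, called at 1.95-fold lower, and the activator Gli2, not called at 1.49-fold lower. Ptch1 is heterozygous by genotype in all 4 libraries. Each pair mixes roles.

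Promoter windows from RefSeq (GRCm38.p6), running from 250 bases before to 50 bases after the gene start, were matched for 4 of the 5 genes. Gli1 had no entry. The RefSeq start of Ptch1 differs from the end of its gene model given above, so its window lies inside that model; the windows of Hhip and Gli2 flank the starts of theirs. Hhip, Ptch1 and Gli2 are shown because they span the range from a large fall to the smaller differences, written 5′ to 3′ on the gene's strand. Capitals mark the stretch nearest to the Gli binding consensus GACCACCCA, searched on both strands; it is the first such stretch where several are equally near.
Hhip, chr8:80057959-80058258, minus strand: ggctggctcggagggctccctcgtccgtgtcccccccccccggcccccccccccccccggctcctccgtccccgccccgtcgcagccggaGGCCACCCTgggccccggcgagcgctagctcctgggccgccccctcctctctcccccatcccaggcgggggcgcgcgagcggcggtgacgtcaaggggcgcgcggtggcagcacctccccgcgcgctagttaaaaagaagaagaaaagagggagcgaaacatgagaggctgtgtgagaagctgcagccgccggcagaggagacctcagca
Ptch1, chr13:63565686-63565985, minus strand: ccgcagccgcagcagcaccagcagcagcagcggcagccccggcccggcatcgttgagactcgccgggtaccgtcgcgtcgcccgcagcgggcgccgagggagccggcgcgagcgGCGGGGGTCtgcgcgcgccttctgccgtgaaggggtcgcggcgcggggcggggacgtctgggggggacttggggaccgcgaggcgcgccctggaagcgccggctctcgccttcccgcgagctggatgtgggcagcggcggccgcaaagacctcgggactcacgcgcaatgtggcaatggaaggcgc
Gli2, chr1:119053570-119053869, minus strand: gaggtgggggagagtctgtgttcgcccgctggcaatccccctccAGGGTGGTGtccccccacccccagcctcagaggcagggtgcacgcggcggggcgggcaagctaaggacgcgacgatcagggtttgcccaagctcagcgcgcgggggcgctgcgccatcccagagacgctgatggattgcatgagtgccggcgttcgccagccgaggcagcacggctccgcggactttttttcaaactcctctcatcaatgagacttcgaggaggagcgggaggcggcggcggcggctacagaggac
None of these windows holds the exact motif, which 0.253% of all 32851 windows hold. The nearest stretch differed from it at 2 positions in Hhip and Gli2 and at 3 in Ptch1, and 58.3% of all windows hold a stretch within 2 differences and 99.4% within 3. The windows were rich in G and C, at 73.7% in Hhip, 76.3% in Ptch1 and 67.3% in Gli2 against a median of 52.7% over all windows.

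The rest of the pathway was read from 6 lists with 62 genes, of which 53 were tested. Among these, 2 fell and 6 rose, and the median log2 fold change was 0.00, against 0.01 over all tested genes. Beside the 3.80% lower and 8.62% higher among all tested genes, these counts are near the shares over all genes. Both that fell are in a single list, that of other Hedgehog targets.

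**Figure D4:**
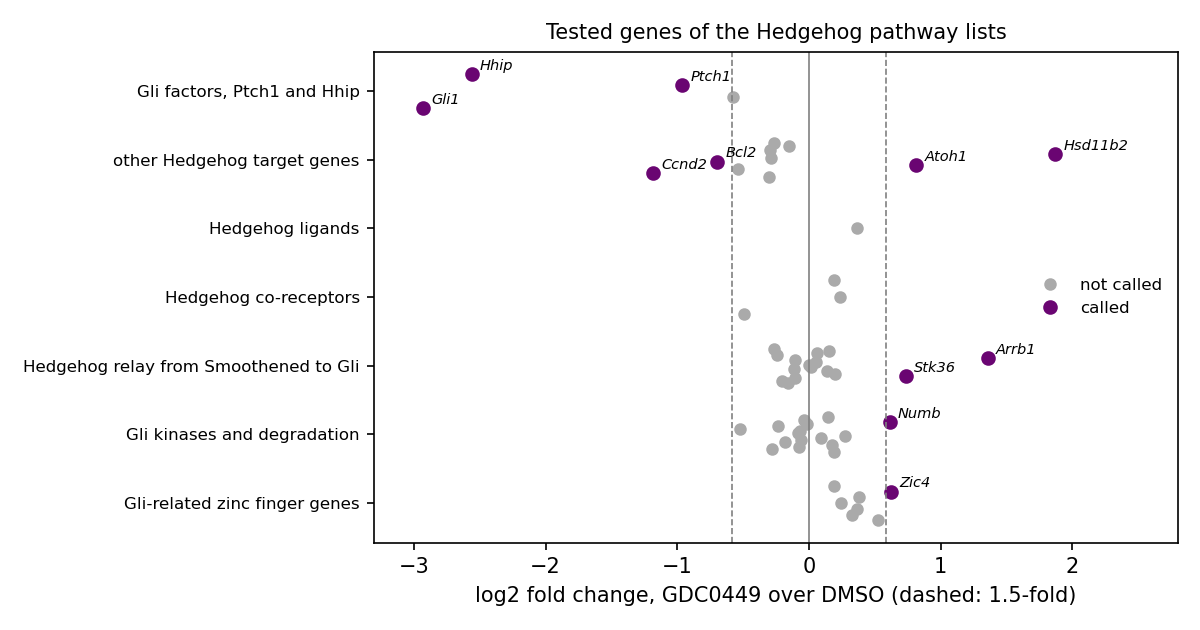
log2 fold change (GDC0449 over DMSO) of each tested gene of the pathway lists; purple points with names passed the threshold and grey points did not. Gli1, at -2.93, and Hhip, at -2.56, lie lower than every other gene shown.

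Of 10 tested genes in this list, 2 fell and 2 rose, with a median log2 fold change of -0.29. Ccnd2, a G1 cyclin gene, fell by 1.18 on the log2 scale (SE 0.06), and Bcl2, which encodes a survival protein, fell by 0.70 (SE 0.10). Hsd11b2, which encodes a glucocorticoid-inactivating enzyme, rose from 6.87 ± 1.73 to 25.4 ± 0.592 CPM (SD, n = 2), and Atoh1, a granule neuron progenitor factor, had a log2 fold change of 0.81 (SE 0.07). Mycn and Ccnd1, drivers of progenitor proliferation, were at -0.54 and -0.31 and were not called. Both passed the adjusted p (edgeR adjusted p = 3.37e-11 for Mycn and 1.00e-04 for Ccnd1) and missed the fold threshold. Mycn passed the threshold on log2(FPKM + 1), at -0.71. Bcl2 missed it there, at -0.50.

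Above Gli in the pathway, 2 tested genes were called, both of them higher. None of 3 tested co-receptor genes was called by edgeR: Boc was at -0.49, Cdon at 0.23 and Gas1 at 0.19. Of these, Boc (edgeR adjusted p = 1.47e-08) and Cdon (0.0205) passed the adjusted p and missed the fold threshold. For Cdon this depended on the setting: it passed with limma-voom (adjusted p = 0.0201) but not with DESeq2 (adjusted p = 0.0965). Of 16 relay genes from Smoothened to Gli, 2 rose and 0 fell, with a median of 0.01. Smo, the protein target of the drug, had 139.9 ± 6.15 CPM with DMSO against 125.7 ± 7.59 CPM with GDC0449 (SD, n = 2). Its log2 fold change of -0.16 (SE 0.07) passed neither the adjusted p (edgeR adjusted p = 0.0613) nor the fold threshold. Sufu, which holds Gli proteins inactive, was at -0.21 (SE 0.07), past the adjusted p (edgeR adjusted p = 0.0213) but under the fold threshold. Sufu, too, passed with limma-voom (adjusted p = 0.0211) but not with DESeq2 (adjusted p = 0.0706). The risers were Stk36, a kinase related to fly Fused, at 0.73 (SE 0.09), and Arrb1 at 1.36 (SE 0.37). Arrb1 was scarce, at 0.698 CPM in DMSO, and lost its call without either DMSO library, with edgeR adjusted p of 0.0842 and 0.0819, and with DESeq2, at 0.0555. On log2(FPKM + 1) its difference was 0.02.

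Of 16 genes for kinases and degradation factors that act on Gli proteins, 1 rose and 0 fell, with a median of -0.05. The riser was Numb, an adaptor for the ligase Itch, at 0.61 (SE 0.08). It was just under the fold threshold without DMSO replicate 1, at 0.58, and on log2(FPKM + 1), at 0.47. Spop, a ligase adaptor for Gli2 and Gli3, was at -0.52 and was not called. It passed the adjusted p (edgeR adjusted p = 2.23e-06) and missed the fold threshold. Spop is named here after its value was seen. Of 7 tested genes for related zinc finger proteins, Zic4 rose, at 0.62 (SE 0.08), and 0 fell. Zic4 lost its call without DMSO replicate 2, at 0.58, and on log2(FPKM + 1), with a limma adjusted p of 0.14. Of the ligand genes only Ihh had enough reads to be tested, at 0.36 (SE 0.51). Shh had at most 1 read and Dhh at most 3 reads per library.

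The genes with the library pattern nearest to each member were found among 10158 named genes that averaged 5 CPM or more, by Euclidean distance over the 4 libraries on log2(CPM + 0.5), after subtraction of the DMSO mean. Nearest to Gli1 were Steap1, of a metalloreductase family, at a distance of 0.11, Gpr153, an orphan receptor gene, at 0.25, and Trib3, a pseudokinase gene, at 0.26. For Hhip they were Stard5, a lipid transfer protein gene, at 0.08, the stress factor gene Atf3 at 0.10 and Soat2, which encodes a sterol acyltransferase, at 0.14. Their log2 fold changes were -3.52, -2.77 and -3.09 for the first trio and -2.60, -2.81 and -2.93 for the second. For Ptch1 they were Rdm1, the potassium channel gene Kcnq5 and the phosphatase gene Dusp14, at distances of 0.04 to 0.06. For Gli2 they were Rbmx2, the receptor phosphatase gene Ptpru and the respiratory chain gene Uqcrq, at 0.02 to 0.04. None of the 5 members was among the nearest 3 of another. The 4 libraries form only 2 groups, and the pseudocount compresses the distance of scarce genes such as Steap1, at 0.948 CPM in GDC0449.

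**Figure D5:**
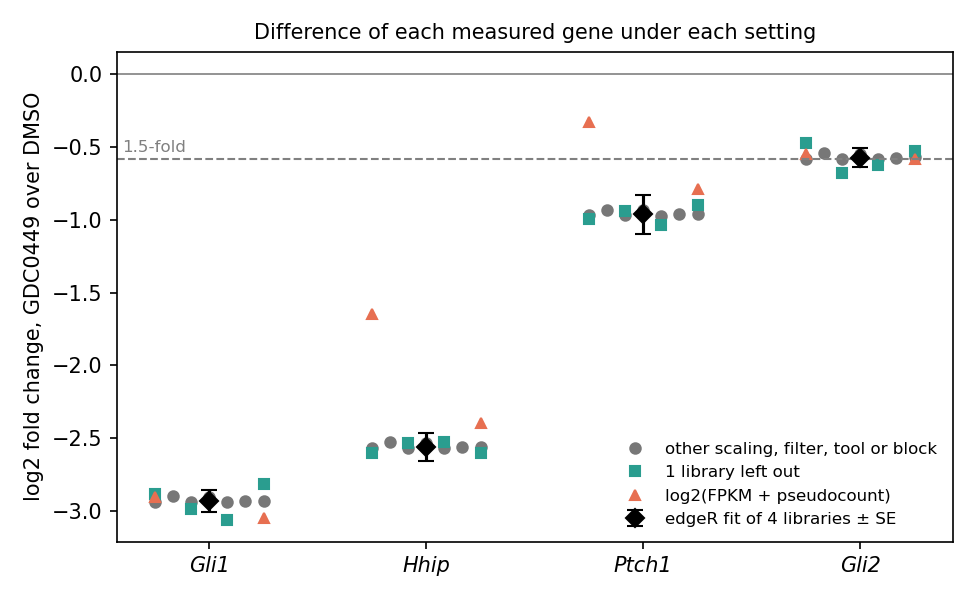
log2 fold change of the 4 measured genes in the edgeR fit of all 4 libraries (black, ± standard error) and under 13 alternative settings; the dashed line is 1.5-fold. Gli1 and Hhip stay below the line throughout, Ptch1 lies above it on log2(FPKM + 1), and Gli2 sits on it.

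Across 13 alternative settings, the log2 fold changes of Gli1 and Hhip were called each time, those of Ptch1 in 11 and those of Gli2 in 2. The order from Gli1 through Hhip and Ptch1 to Gli2 held in each of them except log2(FPKM + 1), where Ptch1, at -0.33, came after Gli2.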

How the data were processed

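RNA-seq of 4 libraries, 2 per treatment, was analysed from a deposited table. Per the submitters' processing notes, the authors used Trim Galore, HISAT2 and HTSeq 0.11.1 on mm10. The table holds deposited counts per gene and, beside them, the authors' deposited FPKM. Entries that name no gene (12.3% to 14.4% no feature, 4.73% to 4.91% ambiguous, 10.4% to 10.7% multiply aligned) were left out. Counts were fitted with edgeR 4.0.16 (quasi-likelihood, TMM, R 4.3.3) over all 4 libraries with the Benjamini-Hochberg adjustment. The script was tested on simulated data. Gene coordinates and exon lengths came from GENCODE M21 on GRCm38. Levels between genes used FPKM. Named genes were the 5 members, pathway-list genes past the threshold, a few pathway genes fixed by name, and the 3 nearest patterns per member; exceptions are marked. A gene of the target list is not reported here and was left out of the list counts. The members and lists were chosen with earlier results of these data known. Alternatives were scaling, filters, DESeq2 1.42.0, limma 3.58.1 (voom and log2 FPKM with pseudocounts 1 and 0.1), a replicate block and leaving out each library.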

Additional observations from a re-analysis of the deposited data

How the results depend on the processing

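Gli1 and Hhip kept their direction and call in all 13 alternatives, with Hhip at -1.65 on log2(FPKM + 1). Gli2 was called in 2, without DMSO replicate 2 (-0.68) and without GDC0449 replicate 1 (-0.63), and ranged from -0.68 to -0.47 over the left-out libraries. Ptch1 missed the threshold on log2(FPKM + 1), at -0.33, and on log2(FPKM + 0.1), at -0.79 with a limma adjusted p of 0.0524. The 588 lower and 1333 higher genes became 367 and 798 with a filter at 5 CPM, 337 and 503 on log2(FPKM + 1), and 347 to 581 and 505 to 1130 with 1 library left out. The higher genes numbered 880 with DESeq2 and 804 on log2(FPKM + 0.1). In the pathway lists 3 genes were higher with either FPKM scale, and 4 were lower on log2(FPKM + 0.1). The shift of Gli1 over Ptch1 was -2.13 from FPKM ratios. Per kilobase of exon the levels were 54.5 for Gli1 in DMSO, and 29.0 and 19.5 for Gli2, 1.11 and 0.568 for Ptch1 and 6.79 and 1.15 for Hhip in DMSO and GDC0449. The causes were not tested. Deviations of same-numbered libraries correlated at 0.06 over 2 pairs, so the numbers were not taken as pairs. With the replicate block 608 genes were lower and 1392 higher, and Gli1 was at -2.93, Gli2 at -0.57, Ptch1 at -0.96 and Hhip at -2.56, with the same calls. No fold change could be tested for Gli3, Shh and Dhh, which had 0 to 3 reads per library. Why Gli3 had 0 reads was not tested.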
